A study of Homo sapiens with 14 samples.

Results

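The genes described here encode the eIF4F cap-binding complex and its relatives, and were taken as a list by name: EIF4G1, EIF4G2, EIF4G3, EIF4E, EIF4E2, EIF4E3, EIF4A1, EIF4A2, EIF4B and EIF4H. They are 10 of the 58434 gene symbols counted, and each of the 10 passed the filter on low counts in every comparison. The question was whether mRNAs of the relatives of DAP5, the protein of EIF4G2, changed in level or in polysome position when DAP5 was silenced.

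MDA-MB-231, an established human triple-negative breast cancer line, carried a doxycycline-inducible lentiviral shRNA, either a non-silencing construct (MB-231-shNSi) or sh Dap5 (MB-231-shDAP5). All 4 cultures, 2 per construct, had 6 days of doxycycline at 1 µg/ml, so that the controls carry the drug and a hairpin too, and 1 hairpin sequence against DAP5 was used. RNA was sequenced from total mRNA, light polysomes (poorly translated) and heavy polysomes (well translated), and in shNSi also from a moderate polysome pool, which gives 14 libraries of 25899838 to 30795910 counts. The shDAP5 light libraries carry, in a second label, the code used for the moderate pool. Their log2 levels correlated at 0.914 to 0.964 with the shNSi light libraries and at 0.718 to 0.853 with the shNSi moderate libraries, across 9387 genes of at least 10 CPM on average (CPM, a gene's counts relative to the size of its library), and they were taken as light. The shDAP5 total libraries are titled as total polysome and were taken as total mRNA, on which every comparison with total mRNA rests. VIM, known for this line, was at 4078 to 5376 CPM in total mRNA, and CD44 at 503 and 641 CPM in shNSi and at 193 and 316 CPM in shDAP5 (log2 change -1.14, edgeR adjusted p = 0.0584), whereas ESR1 was at 0.40 CPM or less, CDH1 at 0.25 CPM or less and PGR at 0 counts.

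As background, eIF4F recruits ribosomes to the mRNA cap. It holds eIF4E, which binds the cap, eIF4A, an RNA helicase, and eIF4G, the scaffold that joins them to eIF3 on the small ribosomal subunit. eIF4B and eIF4H are RNA-binding cofactors that stimulate the helicase. eIF4G3 (eIF4GII) is a functional homologue of eIF4G1, whereas DAP5 lacks the amino-terminal region through which eIF4G1 binds eIF4E and the poly(A)-binding protein. eIF4E2 (4EHP) and eIF4E3 are cap-binding homologues of eIF4E, and eIF4E2 is known for repressing translation with GIGYF proteins.

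The 3 scaffold genes lie on different chromosomes. In GENCODE v29 on GRCh38, a later build than the hg19 of the submitters' processing notes, EIF4G1 is at chr3:184314495-184335358 on the plus strand, EIF4G2 at chr11:10797050-10809110 on the minus strand and EIF4G3 at chr1:20806292-21176888 on the minus strand. Their principal coding sequences have 1599, 907 and 1585 codons. A search was made for the pattern by which eIF4G proteins bind eIF4E, which is a tyrosine codon, any 4 codons, a leucine codon and a codon for leucine, methionine, isoleucine, valine or phenylalanine. The pattern was found at codon 612 of EIF4G1, where it is known to bind eIF4E, at codon 1526 of EIF4G1 and at codon 624 of EIF4G3, and nowhere in EIF4G2 or the other 7 genes. It is a loose pattern, present in 26.4% of the 19513 genes with a coding sequence. The stretches below come from different places in the coding sequences and are not aligned. Those of EIF4G1, codons 611 to 620, and EIF4G3, codons 623 to 632, show the pattern, with its 21 bases in capitals. That of EIF4G2, codons 1 to 10, shows the start codon in capitals, since its reading frame opens with GTG where the other 9 genes have ATG.
EIF4G1: cgtTACGACCGTGAGTTCCTGCTTggtttt
EIF4G3: cagTATGACAGGGAGTTTCTGCTGgacttc
EIF4G2: GTGgagagtgcgattgcagaagggggtgct

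The targeted gene was lower in each shDAP5 library than in each shNSi library of the same kind. In total mRNA EIF4G2 was at 1442 and 1396 CPM in the shNSi cultures and at 541 and 749 CPM in the shDAP5 cultures, where CPM is scaled by TMM, a trimmed mean of ratios between libraries, over all 14 libraries. In light polysomes it was at 1527 and 1562 CPM in shNSi and at 546 and 662 CPM in shDAP5. In heavy polysomes it was at 1385 and 1323 CPM in shNSi and at 708 and 719 CPM in shDAP5. The shNSi moderate pool had the highest EIF4G2 levels of the series, 2516 and 1823 CPM. The fitted levels in shDAP5 were 0.464-fold in total mRNA, 0.397-fold in light and 0.553-fold in heavy polysomes, so silencing was partial, and in bulk libraries fewer cells with the message and less message per cell cannot be told apart.

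In total mRNA EIF4G2 fell by 1.11 ± 0.18 (SE) on the log2 scale, to 0.464-fold with a 95% interval of 0.356 to 0.606 (quasi-likelihood test of edgeR, adjusted by Benjamini-Hochberg over all genes tested, adjusted p = 0.0172). It was the 1 gene called of the 10, where 0.354% of the 14992 genes tested were called. The call was lost without shDAP5 culture 1 (log2 change -0.90, edgeR adjusted p = 0.680), with library sizes without TMM (edgeR adjusted p = 0.0501), with limma (limma adjusted p = 0.143) and with all 14 libraries in 1 fit (edgeR adjusted p = 0.443), and the log2 change was between -1.37 and -0.90 in every alternative.

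None of the 9 relatives was called in total mRNA, and the mean levels of both other scaffolds were lower there in shDAP5. EIF4G1 was at 773 and 949 CPM in shNSi and at 509 and 676 CPM in shDAP5, so that both shDAP5 cultures were below both shNSi cultures. Its log2 change was -0.51 ± 0.18 (SE), with a 95% interval of 0.536 to 0.921-fold (edgeR adjusted p = 0.254, unadjusted p = 0.0141). EIF4G3 was at 105 and 102 CPM in shNSi and at 83.4 and 101 CPM in shDAP5, a log2 change of -0.13 ± 0.18 (SE) and a 95% interval of 0.700 to 1.19-fold (edgeR adjusted p = 0.860).

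The cap-binding genes did not pass the test in total mRNA. EIF4E was at 56.9 and 60.8 CPM in shNSi and at 54.5 and 75.8 CPM in shDAP5, with groups that overlap and a 95% interval of 0.845 to 1.51-fold. EIF4E2 was at 95.3 and 103 CPM in shNSi and at 99.1 and 97.3 CPM in shDAP5, with an interval of 0.784 to 1.31-fold. EIF4E3 was low throughout, at 25 to 189 counts per library, and its total mRNA levels of 3.06 and 2.23 CPM in shNSi and 2.09 and 1.69 CPM in shDAP5 leave an interval of 0.422 to 1.26-fold.

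Of the helicase and its cofactors, EIF4A2 was at 658 and 773 CPM in shNSi and at 654 and 701 CPM in shDAP5, with a 95% interval of 0.757 to 1.24-fold. EIF4B was at 283 and 272 CPM in shNSi and at 269 and 292 CPM in shDAP5, with an interval of 0.805 to 1.33-fold. EIF4H was at 399 and 384 CPM in shNSi and at 350 and 343 CPM in shDAP5, groups that do not overlap, with an interval of 0.708 to 1.16-fold. With EIF4A1 left aside, the log2 changes of the relatives in total mRNA lay between -0.51 and 0.18, and those of EIF4E, EIF4E2 and EIF4B were above 0. Over all 10 genes, EIF4A1 as deposited included, the median was -0.09, beside 0.01 over all genes tested.

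EIF4A1, the main helicase gene of the complex in most cells, could not be read from these counts. It had 12 to 50 counts per library, 0.52 to 1.72 CPM, whereas EIF4A2 had 552 CPM or more. In GENCODE v29 each of the 1756 bases of its principal transcript also belongs to the read-through gene SENP3-EIF4A1 on the same strand, which itself had 4 to 19 counts. How reads over shared exons were assigned is not given in the sources used here, so the EIF4A1 values are printed as deposited and carry no statement on the level of its mRNA. For EIF4E, the counts of the near-identical copy EIF4EP2 were 11 to 106 per library, and reads shared with it could not be told apart.

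**Figure D1:**
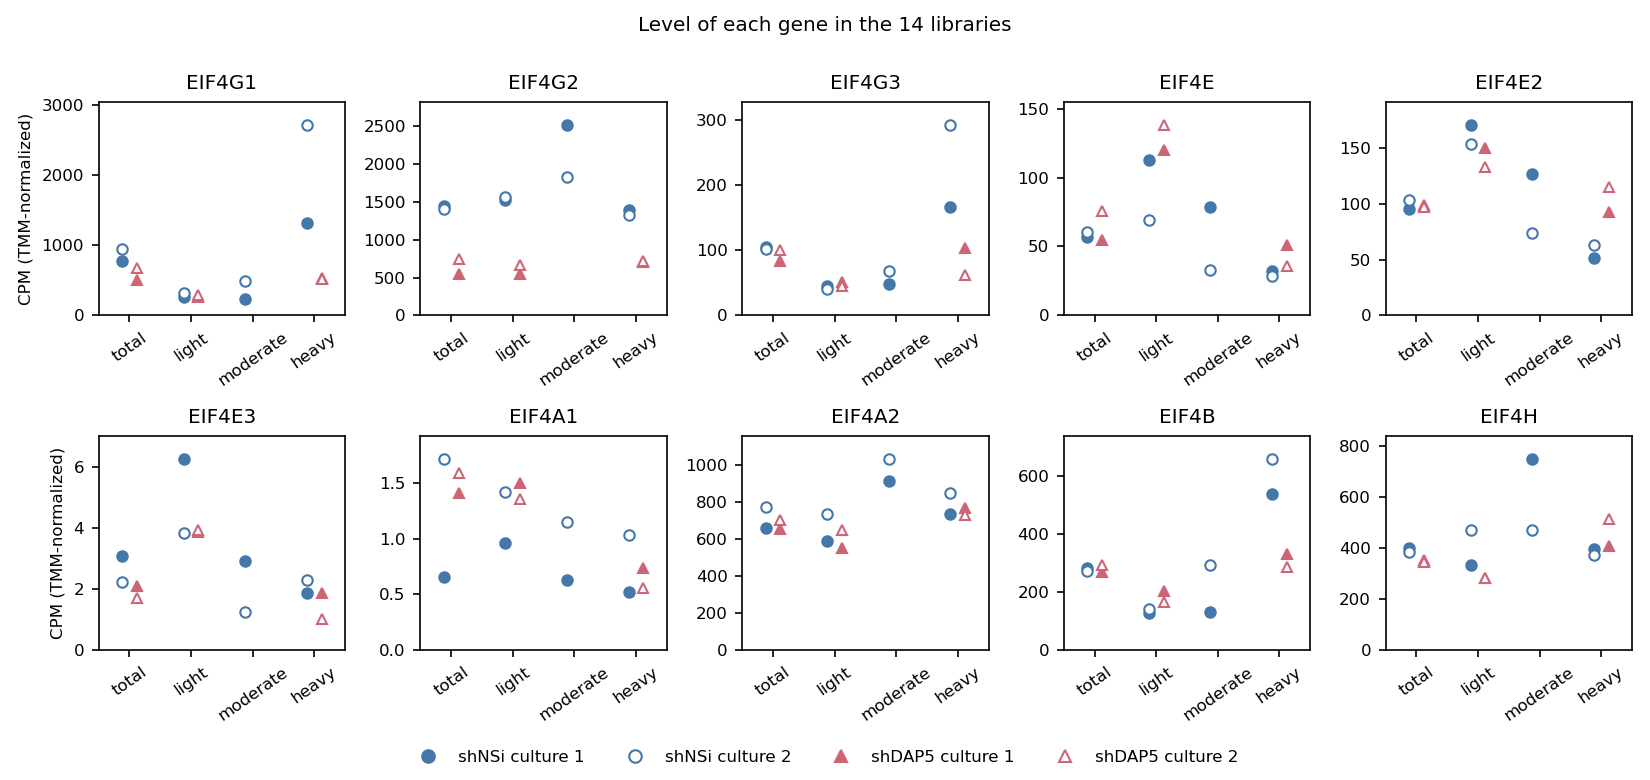
Level of each of the 10 genes in CPM (TMM-normalized, linear axis from 0, a scale of its own in each panel) in the total, light, moderate and heavy libraries, with circles for shNSi, triangles for shDAP5, filled symbols for culture 1 and open symbols for culture 2. EIF4G2 is lower in shDAP5 in each fraction, whereas EIF4G1 differs most in heavy polysomes, from 1315 and 2719 CPM to 537 and 519 CPM.

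Levels of different genes were compared per length, as CPM per kb of the principal transcript in shNSi total mRNA. EIF4A2 was at 373 ± 42.7 (SD, n = 2) and EIF4G2 at 355 ± 8.11, which overlap. EIF4G1 at 156 ± 22.6 and EIF4H at 146 ± 4.15 overlap too on this scale. EIF4B at 66.9 ± 1.92 and EIF4E2 at 61.8 ± 3.43 were lower and did not overlap, and EIF4G3 at 17.8 ± 0.298 was below all of these. The message of DAP5 was thus above that of EIF4G1 per length in control cells, and in shDAP5 the order was EIF4G2 at 161 ± 36.8 and EIF4G1 at 107 ± 21.4. EIF4E stood at 5.11 ± 0.240 per kb of an 11523-base principal transcript but at 90.4 per kb of its coding sequence, so its place depends on the transcript that the cells use. The length used also moves EIF4H, which per kb of coding sequence was at 526 beside 179.6 for EIF4G1, 521 for EIF4G2 and 586 for EIF4A2.

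Within a library, the ratio of EIF4G1 to EIF4G2 counts does not depend on normalization. In total mRNA it was 0.536 and 0.680 in the shNSi cultures and 0.941 and 0.902 in the shDAP5 cultures, both counts being lower there and that of EIF4G2 by more. On the log2 scale the means were -0.73 ± 0.24 (SD, n = 2) and -0.12 ± 0.04, and the difference was 0.61. The groups did not overlap (exact two-sided permutation test, p = 0.333, which is the minimum for 2 against 2 cultures). In light polysomes the log2 ratio was also higher in shDAP5, by 1.29, from -2.56 and -2.26 to -1.06 and -1.17. In heavy polysomes it went the other way, from -0.07 and 1.04 in shNSi to -0.40 and -0.47 in shDAP5, a difference of -0.92 beside an SD of 0.79 within shNSi. In the shNSi moderate pool it was -3.38 in culture 1, below both other pools of that culture, and -1.88 in culture 2, between them.

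**Figure D2:**
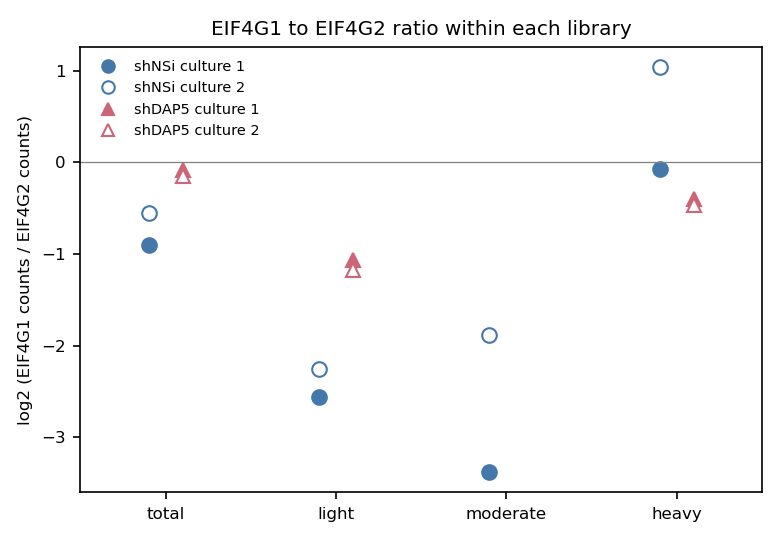
Log2 ratio of EIF4G1 to EIF4G2 counts within each of the 14 libraries, by fraction, with circles for shNSi, triangles for shDAP5, filled symbols for culture 1 and open symbols for culture 2. The shDAP5 libraries lie above shNSi in total mRNA and light polysomes and below shNSi in heavy polysomes.

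The ratio of EIF4G1 to EIF4G3 counts was 7.38 and 9.28 in shNSi total mRNA and 6.10 and 6.66 in shDAP5, a log2 difference of -0.38 with groups that did not overlap (exact permutation test, two-sided, p = 0.333). Without shNSi culture 2 this difference was -0.21. The ratio of EIF4E to EIF4E2 differed by 0.14 on the log2 scale between the groups, which overlapped (exact permutation test, two-sided, p = 1), and by -0.11 without shDAP5 culture 2 and 0.39 without shDAP5 culture 1. That of EIF4A1 to EIF4A2 differed by 0.57, with groups that overlapped (exact permutation test, two-sided, p = 0.667) and with the counting of EIF4A1 as above, and it was -0.01 without shNSi culture 1 and 1.15 without shNSi culture 2. The 4 ratios were tested in total mRNA, light polysomes and heavy polysomes, and with a smallest p of 0.333 none can pass after adjustment. In light and heavy polysomes the log2 difference was -0.24 and -0.38 for EIF4G1 to EIF4G3, 0.74 and -0.36 for EIF4E to EIF4E2 and 0.43 and -0.12 for EIF4A1 to EIF4A2.

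The genes occupied different parts of the gradient in control cells. In shNSi, EIF4G1 was at 258 and 326 CPM in light polysomes and at 1315 and 2719 CPM in heavy polysomes, a log2 heavy over light ratio of 2.65 ± 0.40 (SE, edgeR adjusted p = 1.41e-05). EIF4G3 was at 44.7 and 41.0 CPM in light and at 167 and 294 CPM in heavy polysomes, a ratio of 2.32 ± 0.33 (SE, edgeR adjusted p = 6.95e-06). EIF4B was at 128 and 140 CPM in light and at 540.2 and 661 CPM in heavy polysomes, a ratio of 2.11 ± 0.34 (SE, edgeR adjusted p = 2.96e-05). These 3 messages were the heavy ones of the group, with every heavy library above every light library.

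The 3 cap-binding genes were on the light side. EIF4E was at 113 and 69.4 CPM in light and at 31.9 and 28.8 CPM in heavy polysomes, a log2 ratio of -1.60 ± 0.30 (SE, edgeR adjusted p = 0.000137). EIF4E2 was at 171 and 153 CPM in light and at 51.3 and 63.4 CPM in heavy polysomes, a ratio of -1.55 ± 0.31 (SE, edgeR adjusted p = 0.000218). EIF4E3 was at 6.27 and 3.84 CPM in light and at 1.86 and 2.29 CPM in heavy polysomes, a ratio of -1.30 ± 0.38 (SE, edgeR adjusted p = 0.00561). EIF4G2, EIF4A2 and EIF4H were near even, at log2 ratios of -0.24 ± 0.38, 0.21 ± 0.36 and -0.09 ± 0.35 (SE), none of which passed the test.

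In all 6 of the 10 genes were called in this comparison, where 61.6% of the 15878 genes tested were called, so that the count itself is that of the background. Coding length went along with the position: across 12816 genes, which are not independent replicates, Spearman's rho between the longest coding length of a gene and its heavy over light ratio was 0.64. Genes within 10% of the coding length of EIF4G1, 4818 bases, had a median ratio of 1.30, and those of the length of EIF4E had a median of -0.83. EIF4G2, at -0.24, was below the median of 1.16 over 886 genes within 10% of its length but inside their spread, at percentile 15.1. In the fit with offsets for coding length EIF4G1, EIF4G3 and EIF4B still passed as heavy and EIF4E and EIF4E2 as light, EIF4E3 no longer passed, EIF4G2 passed as light at -1.26 (edgeR adjusted p = 0.00117) and EIF4H as heavy at 0.65 (edgeR adjusted p = 0.0467), with a changed sign. EIF4E3 was also lost without shNSi culture 1 (-0.79), and EIF4H passed as light with limma (-0.63).

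In heavy polysomes silencing of DAP5 went with less message of both other scaffolds. EIF4G1 was at 1315 and 2719 CPM in shNSi and at 537 and 519 CPM in shDAP5, and fell by 1.85 ± 0.39 (SE) on the log2 scale to 0.278-fold, with a 95% interval of 0.163 to 0.473 (edgeR adjusted p = 9.47e-05). EIF4G3 was at 167 and 294 CPM in shNSi and at 103 and 62.8 CPM in shDAP5, and fell by 1.39 ± 0.34 (SE) to 0.382-fold, with an interval of 0.239 to 0.611 (edgeR adjusted p = 0.000911). EIF4E2, in contrast, rose by 0.93 ± 0.33 (SE), from 51.3 and 63.4 CPM to 92.6 and 115 CPM, which is 1.90-fold with an interval of 1.22 to 2.97 (edgeR adjusted p = 0.0213). The groups did not overlap for any of the 3, which is no further support, since the test on these same libraries picked them. How often the groups overlap over all genes was not counted.

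EIF4B and EIF4G2 did not pass the test in heavy polysomes. EIF4B was at 540.2 and 661 CPM in shNSi and at 332 and 287 CPM in shDAP5, a log2 change of -0.88 ± 0.36 (SE, edgeR adjusted p = 0.0520). EIF4G2 had a log2 change of -0.86 ± 0.38 (SE, edgeR adjusted p = 0.0691), and the groups of both genes did not overlap. Both passed with DESeq2 and with all 14 libraries in 1 fit, and EIF4B also with no filter and without shNSi culture 1. With the shNSi moderate pool in place of heavy EIF4B was at 0.59, the opposite direction, and EIF4G2 at -1.58. EIF4E was at 31.9 and 28.8 CPM in shNSi and at 50.7 and 35.9 CPM in shDAP5, a log2 change of 0.58 ± 0.33 (SE, edgeR adjusted p = 0.168). The values of EIF4E3, EIF4A1, EIF4A2 and EIF4H lay between -0.46 and 0.33.

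Thus 3 of the 10 genes were called in heavy polysomes, 2 lower and 1 higher, where 30.9% of the 14270 genes tested were called, a share like that of the group. The median log2 change of the 10 genes was -0.32, beside 0.09 over all genes tested. No member was called with offsets for coding length (EIF4G1 at -0.92, EIF4G3 at -0.48, EIF4E2 at 0.33), where 11.5% of all genes still were, with both shNSi pools summed (-1.02, -0.65 and 0.40), where 2.77% were, or without shDAP5 culture 2, where 2 genes in all were called. EIF4G1 alone passed without shNSi culture 2, EIF4E2 was lost without each culture in turn, with no filter and with all 14 libraries in 1 fit, and with the shNSi moderate pool in place of shNSi heavy EIF4G1 was at 0.56 and EIF4G3 at 0.55, the opposite direction, with no member called.

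In light polysomes none of the 10 genes was called, where 0% of the 15529 genes tested were called by edgeR, 1330 of them having an unadjusted p under 0.05. DESeq2 called 105 genes there and limma 0. EIF4G2 had the largest change of the group, -1.33 ± 0.32 (SE, edgeR adjusted p = 0.430, unadjusted p = 0.00223), and DESeq2 called it (DESeq2 adjusted p = 0.00374). EIF4G1 was at 258 and 326 CPM in shNSi and at 261 and 293 CPM in shDAP5, and EIF4G3 at 44.7 and 41.0 CPM and at 51.9 and 44.7 CPM. Their log2 changes of -0.05 ± 0.30 and 0.20 ± 0.26 (SE) leave 95% intervals of 0.601 to 1.55-fold and 0.767 to 1.71-fold. The shNSi light cultures differed between themselves, with r = 0.923 beside 0.982 for shDAP5 light. Of the 10 genes, EIF4G2, EIF4E and EIF4H passed without shNSi culture 1, and EIF4G2 alone without shNSi culture 2. Many genes outside the family passed as well in both of these fits.

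**Figure D3:**
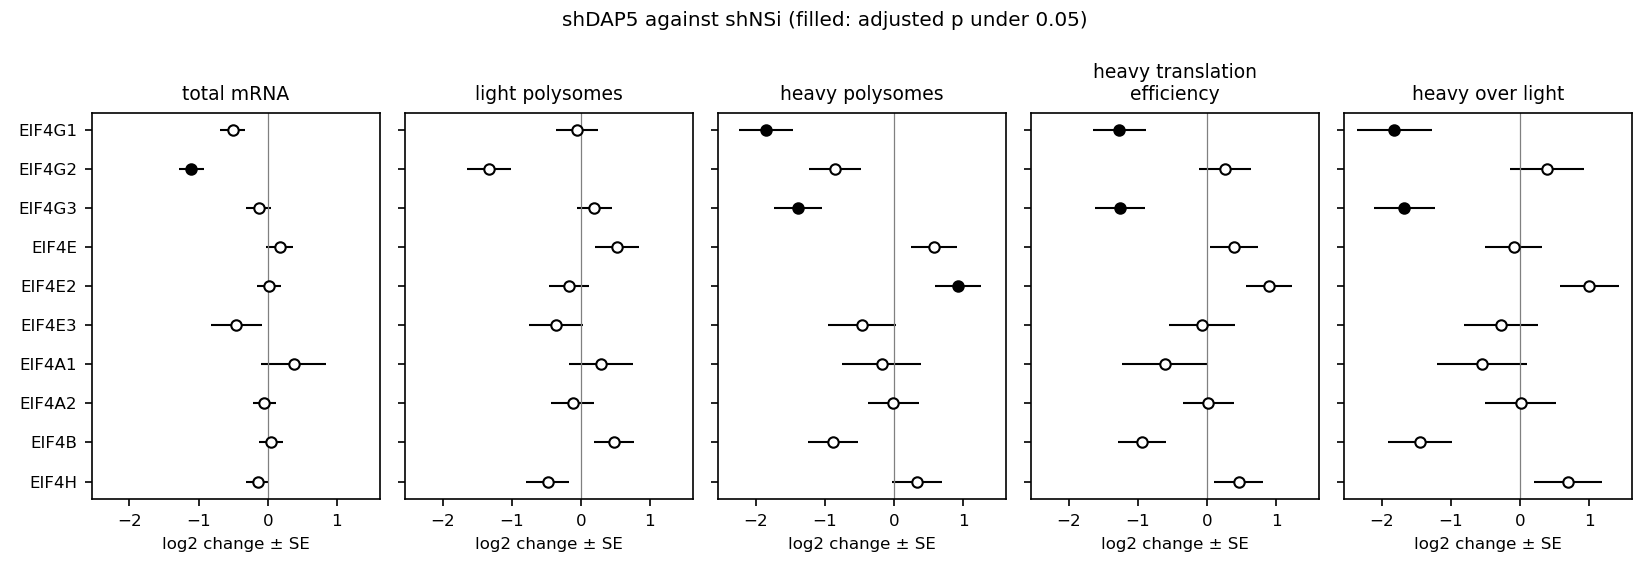
Log2 change of each gene, shDAP5 against shNSi, in total mRNA, light polysomes and heavy polysomes, in heavy translation efficiency and in the heavy over light ratio, with bars of 1 SE from the edgeR fit of 2 cultures per group (4 libraries, or 8 for the last pair of panels). Filled points have an edgeR adjusted p under 0.05: EIF4G2 in total mRNA, EIF4G1 and EIF4G3 in the last 3 panels, and EIF4E2 in heavy polysomes.

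Heavy translation efficiency, the heavy polysome level relative to total mRNA of the same culture, separates polysome loading from abundance. For EIF4G1 the log2 ratio of heavy to total was 0.77 and 1.52 in the shNSi cultures and 0.08 and -0.38 in the shDAP5 cultures, and the change was -1.27 ± 0.39 (SE, edgeR adjusted p = 0.0261). For EIF4G3 it was 0.67 and 1.52 in shNSi and 0.31 and -0.69 in shDAP5, a change of -1.26 ± 0.37 (SE, edgeR adjusted p = 0.0223). In each the shDAP5 cultures lay below the shNSi cultures. For EIF4G2 the ratio was -0.06 and -0.08 in shNSi and 0.39 and -0.06 in shDAP5, a change of 0.26 ± 0.38 (SE, edgeR adjusted p = 0.688) with a 95% interval of 0.709 to 2.02-fold.

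EIF4B and EIF4E2 missed the threshold in opposite directions. The heavy to total ratio of EIF4B was 0.93 and 1.28 in shNSi and 0.30 and -0.03 in shDAP5, a change of -0.94 ± 0.35 (SE, edgeR adjusted p = 0.0632). That of EIF4E2 was -0.89 and -0.70 in shNSi and -0.10 and 0.24 in shDAP5, a change of 0.89 ± 0.33 (SE, edgeR adjusted p = 0.0631). EIF4E had a change of 0.39 ± 0.35 (SE), EIF4H of 0.46 ± 0.35 (SE) and EIF4A2 of 0.02 ± 0.37 (SE), with edgeR adjusted p-values of 0.394 or more. Without shDAP5 culture 1 both EIF4B (-1.11) and EIF4E2 (1.06) passed, where 28.5% of all genes did, EIF4B also passed with DESeq2, and EIF4E2 with 10 counts in every library. With the shNSi moderate pool in place of heavy EIF4B was at 0.64, the opposite direction, and EIF4E2 at 0.10.

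Of the 10 genes, 2 were called in heavy translation efficiency, both lower, where 13.1% of the 15374 genes tested were called and 8.23% were called lower. Both calls were lost without shNSi culture 2 (-0.91 and -0.86) and without shDAP5 culture 2 (-1.05 and -0.77), and EIF4G1 was also lost without shNSi culture 1 (-1.66). Both were lost with limma (-1.26 and -0.99), where 3.77% of all genes were called. Both were also lost without a term for each culture, with library sizes without TMM and with both shNSi pools summed (-0.31 and -0.42). In each of these 3 settings 0% of all genes were called. With the moderate pool as the control the changes were 1.16 for EIF4G1 and 0.65 for EIF4G3, so that for these genes the direction depends on which shNSi pool is compared with shDAP5 heavy polysomes. As the moderate pool was sequenced in shNSi alone, an effect of the shRNA cannot be told apart from a difference in pooling. The likeness of the shDAP5 heavy libraries to each shNSi pool was not examined.

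Coding length went along with these changes as well. Across 12696 genes, which are not independent replicates, Spearman's rho between coding length and the change in heavy translation efficiency was -0.71, and the median change ran from 0.89 for 962 genes under 500 bases to -0.98 for 360 genes over 6000 bases. Genes within 10% of the length of EIF4G1 had a median of -0.88 and those within 10% of EIF4G3 a median of -0.93, beside -1.27 and -1.26 for the 2 genes, which stood at percentiles 24.6 and 26.8 of those genes. EIF4E3, at -0.07 and from low counts, was further from its length, at percentile 3.8 beside a median of 0.64, and EIF4B at -0.94 was at percentile 12.6 beside -0.28. EIF4E2 at 0.89 was at percentile 79 beside a median of 0.58. EIF4G2 was above the median of its length, at 0.26 and percentile 91.2 beside -0.65 over 887 genes. In the fit with offsets for coding length EIF4G1 was at -0.44 and EIF4G3 at -0.40 (edgeR adjusted p = 0.329 and 0.382), and the part of coding length in the result was not tested further.

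**Figure D4:**
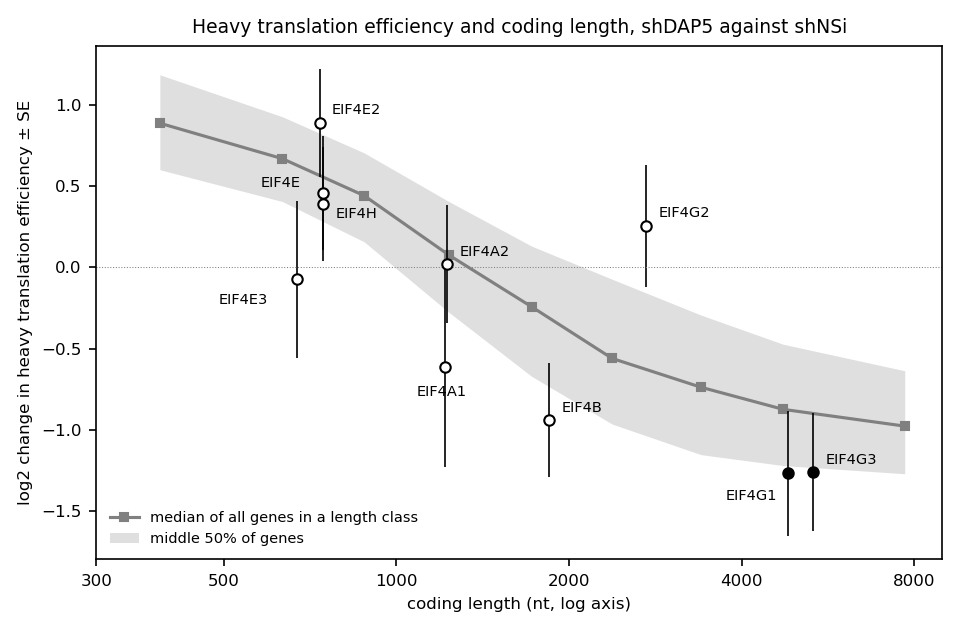
Log2 change in heavy translation efficiency (shDAP5 against shNSi, bars of 1 SE) of the 10 genes against their longest coding length on a log axis, with the grey line joining the medians of all genes in 9 length classes and the band holding the middle 50% of genes. EIF4G1 and EIF4G3 (filled, adjusted p under 0.05) lie at the lower edge of the band for their length, and EIF4E3 and EIF4B lie further below theirs. EIF4E2 lies near the upper edge of its band and EIF4G2 above its band. EIF4A1 is drawn as deposited, and its position carries no statement.

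The heavy over light ratio compares the 2 polysome pools of a culture and uses no total mRNA library. For EIF4G1 the log2 ratio was 2.35 and 3.06 in shNSi and 1.04 and 0.82 in shDAP5, a change of -1.82 ± 0.54 (SE, edgeR adjusted p = 0.0459). For EIF4G3 it was 1.90 and 2.84 in shNSi and 0.99 and 0.49 in shDAP5, a change of -1.67 ± 0.44 (SE, edgeR adjusted p = 0.0304). For EIF4B it was 2.08 and 2.24 in shNSi and 0.71 and 0.79 in shDAP5, a change of -1.45 ± 0.47 (SE, edgeR adjusted p = 0.0601). In each of the 3 the shDAP5 cultures lay below the shNSi cultures, with ratios that stayed above 0. EIF4B passed with DESeq2, with no filter, with 10 counts in every library and without shNSi culture 1, at -1.52 to -1.42, and was at 0.20, the opposite direction, with the shNSi moderate pool in place of heavy.

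For EIF4E2 the ratio was -1.73 and -1.27 in shNSi and -0.70 and -0.22 in shDAP5, a change of 1.00 ± 0.43 (SE, edgeR adjusted p = 0.145). For EIF4E it was -1.82 and -1.27 in shNSi and -1.24 and -1.95 in shDAP5, which overlap. For EIF4G2 it was -0.14 and -0.24 in shNSi and 0.37 and 0.12 in shDAP5, a change of 0.39 ± 0.54 (SE, edgeR adjusted p = 0.700). EIF4E and EIF4E2, a pair of homologues on the light side in control cells, thus had different values, and the difference between them was not tested.

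Here 2 of the 10 genes were called, where 6.75% of the 15878 genes tested were called and 5.21% were called lower. Both calls were lost without shNSi culture 2, without shDAP5 culture 1 and without shDAP5 culture 2. Both were also lost without a term for each culture, with limma and with both shNSi pools summed (-0.87 and -0.83). In each of these last settings 0% of all genes were called. With offsets for coding length (-0.74 and -0.55) both were lost where 0.0315% of all genes were called. The comparison shares its heavy libraries with heavy translation efficiency. With the shNSi moderate pool in place of shNSi heavy the changes were 0.67 and 0.31. With it in place of shNSi light EIF4E3 passed as well, at -1.67, where 23.9% of all genes were called.

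**Figure D5:**
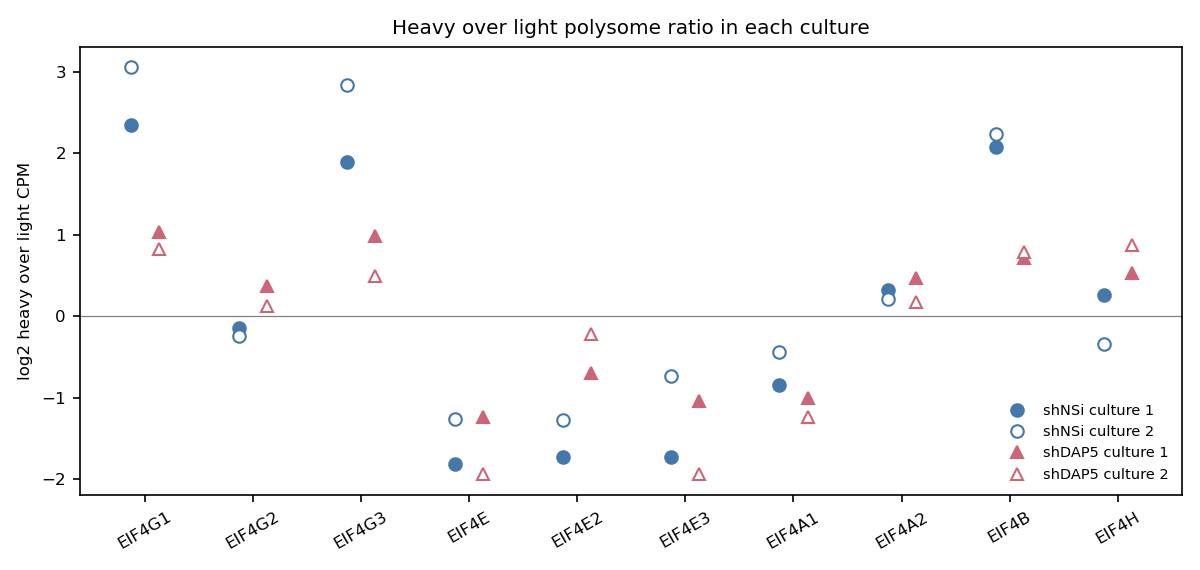
Log2 ratio of heavy to light polysome CPM for each of the 10 genes in each culture, with circles for shNSi, triangles for shDAP5, filled symbols for culture 1 and open symbols for culture 2. EIF4G1, EIF4G3 and EIF4B are the highest in shNSi, at 1.90 to 3.06, and lower in shDAP5, at 0.49 to 1.04.

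The moderate pool, sampled in shNSi alone, shows how steep the gradient was for each gene. EIF4G1 was at 241 and 494 CPM there, 2.45 and 2.46 log2 units below heavy polysomes of the same culture. EIF4G3 was at 48.7 and 67.7 CPM, 1.77 and 2.12 log2 units below heavy. EIF4B was at 129 and 294 CPM, 2.06 and 1.17 units below heavy. For EIF4G1 and EIF4G3 the pool was thus nearer to light than to heavy polysomes. EIF4E2 was at 127 and 73.5 CPM, between its light and heavy levels in each culture, whereas EIF4A2 at 913 and 1034 CPM and EIF4G2 exceeded their light and heavy levels.

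Over the 14 libraries, the log2 CPM of EIF4G1 was most like that of WDR3, EIF5B and DHX8 among 9386 genes, with Pearson's r of 0.996, 0.993 and 0.991. EIF5B encodes the factor that joins the ribosomal subunits, WDR3 a factor of small subunit assembly and DHX8 a splicing helicase. Within the family r with EIF4G1 was 0.964 for EIF4G3, 0.919 for EIF4B, -0.743 for EIF4E and -0.835 for EIF4E2. EIF4G2 was most like KCNAB2, APOLD1 and OSTM1, at r of 0.974, 0.951 and 0.948, and its r with EIF4G1 was 0.09. These values describe 14 libraries that share fractions and cultures.

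Other genes of the cap-binding pathway were followed in 4 lists of 33 genes, 31 of them tested. In total mRNA none was called by edgeR, against 0.354% of all genes, 5 having an unadjusted p under 0.05, and the median log2 change was -0.05. DESeq2 called MKNK2 as higher there, where it called 1.82% of all genes. EdgeR did so too with no filter (2.19% of all genes called), without shNSi culture 1 and without shDAP5 culture 2. Limma called no list gene, beside 0.0334% of all genes. EIF4EBP1 and EIF4EBP2, which hold eIF4E away from eIF4G, had log2 changes of 0.12 ± 0.18 and -0.05 ± 0.18 (SE), PABPC1, the poly(A)-binding protein, of -0.25 ± 0.17 (SE) and EIF3D, the cap-binding subunit of eIF3 and partner of DAP5, of -0.39 ± 0.17 (SE, edgeR adjusted p = 0.374). In light polysomes none was called by edgeR, DESeq2 or limma, 1 having an unadjusted p under 0.05 in edgeR, and EIF4EBP1, EIF4EBP2, PABPC1 and EIF3D were at 0.01, -0.09, -0.26 and -0.59. Without shNSi culture 1 there 2 rose and 4 fell, beside 12.6% and 16.3% of all genes, and with the moderate pool in place of light 1 and 4, beside 12.6% and 13%.

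In heavy polysomes 3 list genes rose and 11 fell among 30 tested, beside 14.2% and 16.7% of all genes, with a median log2 change of -0.51. The 3 that rose were EIF4EBP1, from 51.9 and 39.0 CPM to 75.9 and 130 CPM (log2 change 1.24, edgeR adjusted p = 0.00217), MKNK2, a kinase of eIF4E (1.38), and PAIP2, an inhibitor of the poly(A)-binding protein (1.10). Among eIF4E-binding proteins CYFIP1 (-1.80), GIGYF2 (-1.30) and EIF4ENIF1 (-0.81) fell. Of the other cap-binding factors and helicases DHX29 (-1.73), NCBP1 (-1.44), DDX3X (-1.20) and LARP1 (-1.02) fell, as did PABPC4 (-0.92). Of the DAP5 partners EIF3A (-2.08), EIF3D (-1.21) and FXR1 (-1.04) fell, EIF3A from 579 and 997 CPM to 204 and 148 CPM. PABPC1 at -0.24 and EIF4EBP2 at 0.51 did not pass. Coding length went along with this change too, with Spearman's rho of -0.65 across 12347 genes, and with offsets for it 1 list gene rose and 5 fell, beside 5.18% and 6.29% of all genes. Without shNSi culture 2 the counts were 1 and 5, beside 5.66% and 8.42%, and without shDAP5 culture 1 they were 2 and 7, beside 7.64% and 12.2%. With library sizes without TMM they were 4 and 6, beside 17.5% and 7.98%, and with limma 5 and 7, beside 13.4% and 14.8%. No list gene was called with the shNSi moderate pool in place of heavy or with both pools summed, beside 0.344% and 2.77% of all genes. None was called without shDAP5 culture 2 either, where few genes of any kind were.

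In heavy translation efficiency 1 list gene rose and 7 fell among 31, beside 4.85% and 8.23% of all genes. EIF4EBP1 rose by 1.07 ± 0.34 (SE, edgeR adjusted p = 0.0335). EIF3A (-1.61), DHX29 (-1.59), CYFIP1 (-1.56), NCBP1 (-1.37), GIGYF2 (-1.22), DDX3X (-1.22) and FXR1 (-1.14) fell, and EIF3D at -0.84 (edgeR adjusted p = 0.104), EIF4EBP2 at 0.52 and PABPC1 at -0.02 did not pass. Without shNSi culture 1 none rose and 5 fell, beside 0.126% and 3.47% of all genes. With offsets for coding length NCBP1 alone fell, beside 1.63%, and with limma CYFIP1 and DHX29, beside 1.62%. No list gene was called with library sizes without TMM, without a term for each culture, with the moderate pool in place of heavy or with both pools summed. In each of these settings 0% of all genes were called. None was called without shNSi culture 2 or without shDAP5 culture 2 either, where few genes of any kind were. In the heavy over light ratio 5 list genes fell and none rose, beside 5.21% and 1.54% of all genes: EIF3A (-2.36), DHX29 (-2.14), CYFIP1 (-2.06), NCBP1 (-1.63) and GIGYF2 (-1.53). EIF4EBP1 at 1.02 (edgeR adjusted p = 0.167), EIF4EBP2 at 0.47, EIF3D at -0.78 and PABPC1 at -0.07 did not pass. Without shNSi culture 1 the counts were 1 higher and 7 lower, beside 7.44% and 10.4% of all genes, and with the moderate pool in place of light 2 and 6, beside 11.9% and 12% of all genes. No list gene was called with offsets for coding length, beside 0.0315% of all genes. None was called with limma, without a term for each culture, with the moderate pool in place of heavy or with both pools summed. In each of these last settings 0% of all genes were called. None was called without shDAP5 culture 2 either, where few genes of any kind were.

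In control cells 18 of the 31 list genes were higher in heavy than in light polysomes and 6 were lower, beside 30.5% and 31.1% of all genes. The heavy ones were EIF3A (3.38), CYFIP1 (3.13), EIF3D (2.84), NCBP1 (2.70), FXR1 (2.67), DDX3X (2.67), DHX29 (2.55), PDCD4 (2.38), EIF3E (2.22), FXR2 (1.89), FMR1 (1.83), GIGYF2 (1.81), EIF4A3 (1.77), LARP1 (1.65), NCBP3 (1.51), PABPC4 (1.45), EIF4ENIF1 (1.26) and CTIF (0.67), each as a log2 heavy over light ratio. The light ones were EIF4EBP1 (-2.45), PAIP2 (-1.81), EIF4EBP2 (-1.15), PAIP2B (-1.07), MKNK2 (-0.92) and NCBP2 (-0.88), and PABPC1 at 0.27 did not pass. With offsets for coding length 17 were heavy and 2 light, beside 22.8% and 28.6% of all genes, EIF4EBP2 and NCBP2 then being among the heavy ones and MKNK2 and GIGYF1 the light ones.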

How the data were processed

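The authors deposited whole-number read counts per gene symbol for 14 libraries, without normalization. The submitters' processing notes name STAR 2.6.0a, limma and hg19. The name of the deposited table points to featureCounts with a reverse-strand setting. The annotation and the handling of reads over overlapping genes are not given in the sources used here. Total counts of 25899838 to 30795910 per library and 2 cultures per group limit the precision. The study describes 2 independently performed sets. In the column names each culture carries a code of its own, shared by no other culture, and the labels do not say what the code stands for.

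The members and lists were chosen with earlier results of these data known. Groups came from the sample labels. Counts were filtered with filterByExpr, scaled by TMM and tested with the robust quasi-likelihood test of edgeR 4.0.16 in R 4.3.3, with 4 libraries per fraction. Translation efficiency and the heavy over light ratio used 8 libraries with a term for each culture and the interaction of fraction and shRNA. P-values were adjusted over all genes tested (Benjamini-Hochberg, threshold 0.05). Each SE was the size of the log2 change over the root of the test's F value. Intervals used this SE with the degrees of freedom of the test, 9.2 to 325 for the 10 genes. Most of these are borrowed from other genes, so SE and intervals are not the spread of 2 cultures. Count ratios used the exact permutation test. The scripts were tested on simulated data. All 10 genes, EIF4EBP1, EIF4EBP2, PABPC1, EIF3D and every list gene called in any of the 6 tests are named, with the 3 genes most like EIF4G1 and EIF4G2.

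Coding lengths, positions and sequences came from GENCODE v29 (GRCh38), matched by symbol for 18905 genes and by an older symbol for 381. Alternatives were DESeq2 1.42.0, limma 3.58.1 on quantile-normalized log2(CPM + 1), library sizes without TMM, other filters (none, or 10 counts in every library), other designs, other shNSi pools as the control, offsets for coding length and each culture left out.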

Additional observations from a re-analysis of the deposited data

Results flagged for a closer look

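For EIF4G1 and EIF4G3 the difference between shDAP5 and shNSi varied with the fraction, by the test of the interaction of fraction and shRNA. The moderate pool was sequenced in shNSi alone, so here an effect of the shRNA cannot be told apart from a difference in pooling. EIF4G1 had a log2 change of -0.51 in total mRNA, -0.05 in light and -1.85 in heavy polysomes, and the difference between heavy polysomes and total mRNA was -1.27, that between heavy and light polysomes -1.82. EIF4G3 had a log2 change of -0.13 in total mRNA, 0.20 in light and -1.39 in heavy polysomes, and the same differences were -1.26 and -1.67. Both genes have long coding sequences, and neither difference passed the test in the fit with offsets for coding length, without shNSi culture 2 or without shDAP5 culture 2. With the shNSi moderate pool in place of shNSi heavy the differences took the opposite sign, 1.16 and 0.67 for EIF4G1 and 0.65 and 0.31 for EIF4G3. Groups of 2 cultures are too small to test any culture for standing apart.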

How the results depend on the processing

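With 2 cultures per group a call rests on few libraries, and a fit without a culture leaves 1 in its group, which is then assumed to vary like the other group. The values of EIF4E3 rest on low counts, as few as 25 in a library. Of the 14 log2 changes of a gene of the family that passed the test, tried in 181 fits with another setting, 121 kept direction and call, 54 lost the call and 6 changed sign. The cause of a lost call or a changed sign was not tested. The counts of called list genes under these settings were added after seeing the data. Leaving out each culture gave 0 to 1 genes of the family called in total mRNA, 0 to 3 in heavy polysomes, 0 to 3 in light polysomes, 0 to 4 in heavy translation efficiency, 5 to 6 in the shNSi heavy over light ratio and 0 to 3 in its change. Over all genes the share called then ran from 0% to 2.47%, 0.0134% to 23.7%, 0.0125% to 28.9%, 0.025% to 28.5%, 47.4% to 56.1% and 0.0121% to 17.8%, in the same order. In total mRNA the log2 difference in count ratio was then 0.44 to 0.78 for EIF4G1 to EIF4G2, -0.54 to -0.21 for EIF4G1 to EIF4G3, -0.0081 to 1.15 for EIF4A1 to EIF4A2 and -0.11 to 0.39 for EIF4E to EIF4E2.

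With library sizes without TMM the family count called was 0 for total mRNA, beside 0.12% of all genes. It was 0 too for heavy translation efficiency, where 0% of all genes were called. With limma it was 0 for total mRNA (0.0334% of all genes), heavy translation efficiency (3.77%) and the heavy over light change (0%). All 14 libraries in 1 fit gave 0 for total mRNA, beside 0.0185%. DESeq2 gave 5 in heavy and 1 in light polysomes, beside 28.3% and 0.676% of all genes. In light polysomes the family count was 1 with no filter (0.899%) or with the moderate pool in place of light (25.5%). In heavy polysomes, heavy translation efficiency and the heavy over light change the family counts were 0 in 3 other settings. These were the moderate pool in place of heavy, both pools summed and offsets for coding length. Over all genes 0.344%, 2.77% and 11.5% were called in heavy polysomes, in that order. In heavy translation efficiency these shares were 0%, 0% and 2.71%, and in the heavy over light change 0%, 0% and 0.0315%. Without a term for each culture the family count was 0 in the latter pair of comparisons, beside 0% of all genes in each. The shared replicate numbers did not pair the cultures: the deviations of same-numbered cultures correlated at -0.10 in total mRNA, 0.05 in light and 0.05 in heavy polysomes, -0.19 in heavy translation efficiency and -0.15 in heavy over light. With the replicate block 1 gene of the family was called in total mRNA, 3 in heavy polysomes, 0 in light polysomes, 0 in heavy translation efficiency and 1 in the heavy over light change, and over all genes 365, 4710, 130, 688 and 778. With the numbers crossed, added after seeing the data, the replicate block called 4 in heavy translation efficiency, 4133 over all genes, and 3 in the heavy over light change, 2238 over all genes.

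Over all genes, calls ranged with the setting from 0 to 577 in total mRNA (53 as reported), from 2 to 4710 in heavy polysomes (4414), from 0 to 4678 in light polysomes (0), from 0 to 4515 in heavy translation efficiency (2012), from 7802 to 10443 in the shNSi heavy over light ratio (9783) and from 0 to 3762 in its change (1072). Library sizes without TMM moved the median log2 value of all genes by 0.24 in heavy polysomes, 0.21 in heavy translation efficiency, -0.44 in the shNSi ratio and 0.24 in its change, all 14 libraries in 1 fit by -0.13 in heavy polysomes, and limma by 0.11 in the shNSi ratio. The calls, higher and lower, were then 2504 and 1139 in heavy polysomes (2024 and 2390 as reported), 3635 and 6808 in the shNSi ratio (4846 and 4937) and 995 and 642 in its change (245 and 827). With limma they were 0 and 5 in total mRNA (13 and 40) and 330 and 249 in heavy translation efficiency (746 and 1266), and with all 14 libraries in 1 fit 0 and 3 in total mRNA and 1179 and 2668 in heavy polysomes.

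Signs changed most with the moderate pool in place of heavy, where the log2 change in heavy polysomes was 0.56 for EIF4G1, 0.55 for EIF4G3, -0.33 for EIF4E, 0.59 for EIF4B and -0.38 for EIF4H. Heavy translation efficiency was then 1.16 for EIF4G1, -0.44 for EIF4G2, 0.65 for EIF4G3, -0.38 for EIF4E, -0.31 for EIF4A2, 0.64 for EIF4B and -0.21 for EIF4H, and the heavy over light change 0.67 for EIF4G1, -0.23 for EIF4G2, 0.31 for EIF4G3, -0.25 for EIF4A2 and 0.20 for EIF4B. With both pools summed EIF4H was at -0.098 in heavy polysomes, EIF4G2 at -0.057, EIF4E3 at 0.024 and EIF4A2 at -0.061 in heavy translation efficiency, and EIF4A2 at -0.074 in the heavy over light change. With the moderate pool in place of light, light polysome changes were -0.18 for EIF4G3, 0.59 for EIF4E2, 1.00 for EIF4E3 and -0.11 for EIF4B.

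The other changes of sign were in values that did not pass as reported. With limma EIF4A2 was at 0.059 in total mRNA, 0.38 in heavy polysomes, 0.0073 in light polysomes and -0.18 in the shNSi ratio, and EIF4G1 at 0.084 in light polysomes. Without TMM EIF4A1 was at 0.082 and EIF4A2 at 0.24 in heavy polysomes, EIF4G1 at 0.053 in light polysomes, EIF4E3 at 0.15 in heavy translation efficiency, EIF4A2 at -0.23 in the shNSi ratio and EIF4E at 0.14 in its change. With offsets for coding length EIF4H was at -0.24 in heavy polysomes, EIF4A2 at 0.013 in light polysomes, EIF4E at -0.13, EIF4A2 at -0.049 and EIF4H at -0.063 in heavy translation efficiency, EIF4H at 0.65 in the shNSi ratio, where it passed, and EIF4A2 at -0.10 in its change. With no filter EIF4E2 was at -0.011 in total mRNA, EIF4A2 at -0.0053 in heavy translation efficiency and -0.033 in the heavy over light change, and EIF4H at 0.0050 in the shNSi ratio. With DESeq2 EIF4A2 was at -0.042 and -0.032 in the last 2 comparisons named for it, with 10 counts in every library it was at 0.029 in heavy polysomes, and with all 14 libraries in 1 fit EIF4E2 was at -0.0084 in total mRNA. Leaving out each culture changed a sign within -0.066 to 0.069 for EIF4E2, -0.19 to 1.22 for EIF4A1, -0.19 to 0.067 for EIF4A2, -0.089 to 0.38 for EIF4E and -0.019 to 0.10 for EIF4B in total mRNA, -0.67 to 0.33 for EIF4A1 and -0.19 to 0.037 for EIF4A2 in heavy polysomes, and -0.68 to 0.038 for EIF4E3, -0.21 to 0.11 for EIF4G1 and -0.27 to 0.031 for EIF4A2 in light polysomes. It did so within -0.47 to 0.27 for EIF4E3, -0.063 to 0.10 for EIF4A2 and -0.094 to 0.87 for EIF4E in heavy translation efficiency, -0.39 to 0.23 for EIF4H in the shNSi ratio, and -0.50 to 0.28 for EIF4E, -0.82 to 0.24 for EIF4E3 and -0.19 to 0.19 for EIF4A2 in its change.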
